A study of Mus musculus with 8 samples.

Results

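The transcripts described here are those of 10 genes of the elastic fibre and its crosslinking, taken by gene name from tables of 35275 genes. They are elastin (Eln), fibrillin-1 (Fbn1), the fibulins Fbln1, Fbln2 and Fbln5, the latent TGF-beta binding proteins Ltbp1, Ltbp2 and Ltbp3, lysyl oxidase (Lox) and lysyl oxidase-like 1 (Loxl1). Each name matched 1 row. Messenger RNA was sequenced from a mouse epicardial cell line grown in high-glucose medium with fetal bovine serum. In 4 libraries (KO) the titles give an Hdac3 knockout made with CRISPR/Cas9, delivered by lentivirus as an Hdac3 guide RNA, and in 4 libraries (EV) the cells carried an empty lentiviral vector. Whether the KO cells were a single clone or a pool, and whether replicates were separate cultures, is not given in the labels, so p-values measure only the spread between these libraries.

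An elastic fibre has a core of crosslinked elastin laid on a scaffold of microfibrils, which are built from fibrillins. Fibulins join elastin to the microfibrils and to basement membranes, and latent TGF-beta binding proteins share the domain structure of the fibrillins and, in part, tether latent TGF-beta to the matrix. Lysyl oxidases are copper enzymes that oxidise lysines of elastin and collagen, from which the crosslinks form. In the heart elastic fibres lie in the epicardial connective tissue, the valves and the vessel walls.

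The libraries held 18063745 to 24564892 counts each, and 3 counts, taken as the level below which presence could not be told from absence, corresponded to 0.122 to 0.166 CPM (counts scaled to library size). For KO replicate 1 the title gives the knockout but the transduction label gives the empty vector, so the counts of calls, the 10 genes and the ratios are also given without it. On the first principal component, with 48.1% of the variance, KO libraries lay between 16.8 and 20.8, the highest being KO replicate 1, and EV libraries between -22.9 and -17.4. Hdac3 itself did not differ detectably, with 61.6 ± 3.23 CPM in KO and 61.9 ± 1.53 CPM in EV (SD, n = 4 each, edgeR adjusted p = 0.956), so its transcript level does not check the labels. In the list of 12 epicardial and mesothelial markers 11 passed the filter on low counts, among them Upk3b, Msln and Wt1, while Aldh1a2 stayed at 0.251 CPM in KO and 0.407 CPM in EV. Their summed levels were 5167 to 5315 CPM in KO and 5267 to 5602 CPM in EV, with 4 higher (Krt8, Krt18, Krt19 and Msln) and 4 lower (Wt1, Tcf21, Upk3b and Lrrn4). The summed fibroblast markers, largely fibrillar collagens, were 34717 to 36174 CPM in KO and 26155 to 28178 CPM in EV (4 of 6 tested higher, 2 lower). Smooth muscle markers summed to 1017 to 1210 CPM in KO and 1072 to 1301 CPM in EV (0 of 6 tested higher, 3 lower). Endothelial markers summed to 18.8 to 20.8 CPM in KO and 24.7 to 28.4 CPM in EV, with Pecam1, Cdh5, Tie1 and Emcn below the filter, and cardiomyocyte markers to 111 to 127 CPM in KO and 144 to 157 CPM in EV, nearly all of it Tnnt2, with Nppa at 0. Leukocyte markers summed to 7.32 to 9.01 CPM in KO and 4.54 to 5.84 CPM in EV, mostly Cd68. Hepatocyte markers summed to 7.27 to 18.2 CPM in KO and 3.58 to 5.70 CPM in EV, with none of 7 at 0. Among tested endothelial markers 1 of 2 was higher and 1 lower, and among cardiomyocyte markers 0 of 2 were higher and 1 lower. The 1 leukocyte marker tested was higher, and of 4 hepatocyte markers tested 2 were higher and 0 lower. Of all genes tested 12.6% were higher and 13.4% lower at the same threshold, an edgeR adjusted p under 0.05. The part of these markers in the results below was not tested. In bulk RNA fewer cells of a type and less RNA per cell cannot be told apart.

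Fbln2, Lox and Loxl1 were among the most abundant transcripts of these cells, the other fibre genes were spread below them, and elastin was hardly detected, as the plot of levels per unit length shows. Levels between genes are given as FPKM, the deposited counts scaled to gene length and to the library's total. Fbln2, a large fibulin of basement membranes and elastic fibres, stood highest at 485 ± 10.3 FPKM in KO and 453 ± 20.2 FPKM in EV (SD, n = 4 each, here and for the next levels). Lox followed with 294 ± 9.62 FPKM in KO and 331 ± 12.5 FPKM in EV, and Loxl1 with 173 ± 3.19 FPKM in KO and 187 ± 14.4 FPKM in EV. These 3 genes ranked above 98.4% or more of all detected genes. Ltbp3 ranked above 96.4%, Fbln5 above 93.5%, Fbn1 above 81.7%, Fbln1 above 74.3%, Ltbp1 above 71.4%, Ltbp2 above 65.4% and Eln above 33.2%. Ltbp3 had 88.9 ± 0.959 FPKM in KO and 93.6 ± 4.12 FPKM in EV, Fbln5 51.4 ± 2.14 FPKM in KO and 51.7 ± 1.25 FPKM in EV, and Fbn1 18.3 ± 1.18 FPKM in KO and 18.9 ± 1.15 FPKM in EV. Below them came Fbln1 with 8.38 ± 0.542 FPKM in KO and 16.1 ± 0.801 FPKM in EV, and Ltbp1 with 9.84 ± 0.416 FPKM in KO and 10.9 ± 0.590 FPKM in EV. Ltbp2 had 5.71 ± 0.283 FPKM in KO and 8.94 ± 0.456 FPKM in EV. Far apart from the rest stood Eln at 0.0177 ± 0.00207 FPKM in KO and 0.342 ± 0.0979 FPKM in EV. In EV the mean FPKM of Fbn1 was 55.2 times that of Eln. Over the 9 pairs of neighbours in this order, 8 kept the order in both groups with no overlap between their libraries. The pair of Fbln1 and Ltbp1 did not overlap either but changed places: in KO the 7.58 to 8.73 FPKM of Fbln1 lay below the 9.43 to 10.4 FPKM of Ltbp1, and in EV the 15.5 to 17.3 FPKM of Fbln1 lay above the 10.4 to 11.7 FPKM of Ltbp1. Together the 10 genes took 0.528 to 0.540% of the counts of KO libraries and 0.532 to 0.567% of those of EV libraries. Fbln2 alone made up 42.1 to 43.9% of their summed FPKM in KO and 38 to 39.5% in EV.

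**Figure D1:**
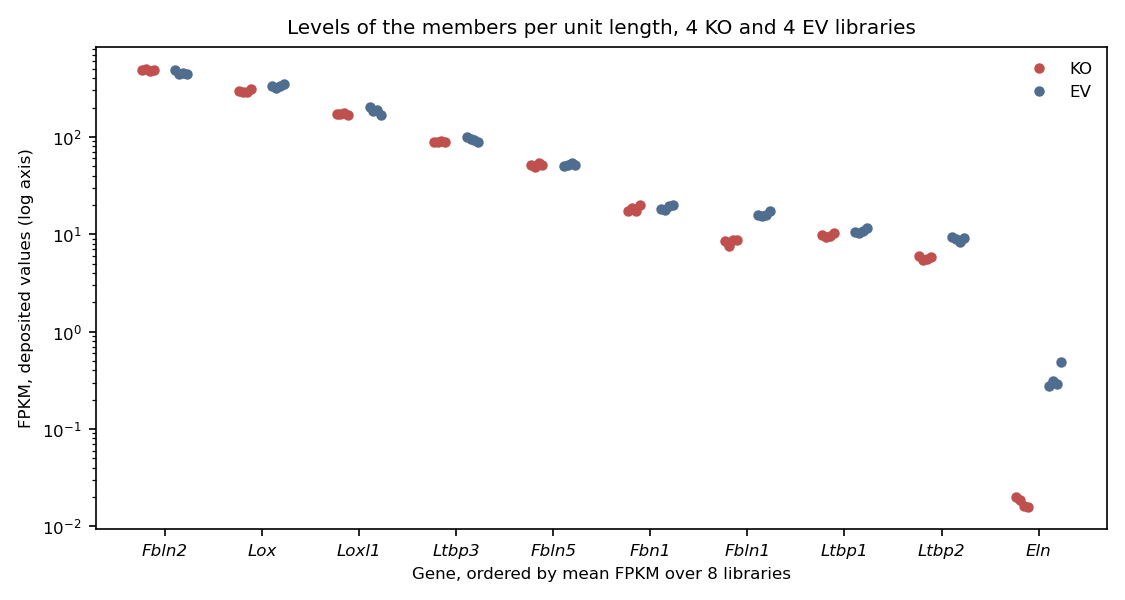
Deposited FPKM (log axis) of the 10 genes in each library, KO left of EV for each gene, ordered by mean FPKM over 8 libraries. Fbln2 stands at the top near 485 FPKM in KO and 453 FPKM in EV, Eln at the bottom, and Fbln1, Ltbp2 and Eln are the genes whose KO points lie clearly below their EV points.

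Between KO and EV cells the group split. Elastin, Fbln1 and Ltbp2 fell, Fbln2 rose slightly, and fibrillin-1, Fbln5, Ltbp1, Ltbp3 and both lysyl oxidases did not pass the test. Of the 10 genes, 4 had an adjusted p under 0.05 by the quasi-likelihood test of edgeR, against 26.0% of the 12801 genes tested. They were 1 higher, against 12.6% of all genes tested, and 3 lower, against 13.4%. In the same 4 genes the KO and EV libraries did not overlap in CPM, against 26.5% of all genes tested. With scaling by library totals alone, 0 were higher and 4 lower, and over all genes 1039 were higher and 2414 lower, against 1613 and 1711 in the main scaling. The median log2 fold change was -0.076 for the 10 genes and 0.0050 over all genes tested, and the median absolute value 0.10 and 0.14. Without KO replicate 1 the same 4 genes passed, and over all genes 2621 passed (1239 higher, 1382 lower), against 3324 with it. In that fit the log2 fold changes of those of the 10 that did not pass were 0.029 for Fbn1, 0.043 for Fbln5, -0.089 for Ltbp1, -0.020 for Ltbp3, -0.12 for Lox and -0.057 for Loxl1. The number called is small, and Eln met the filter on low counts only through its EV libraries.

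**Figure D2:**
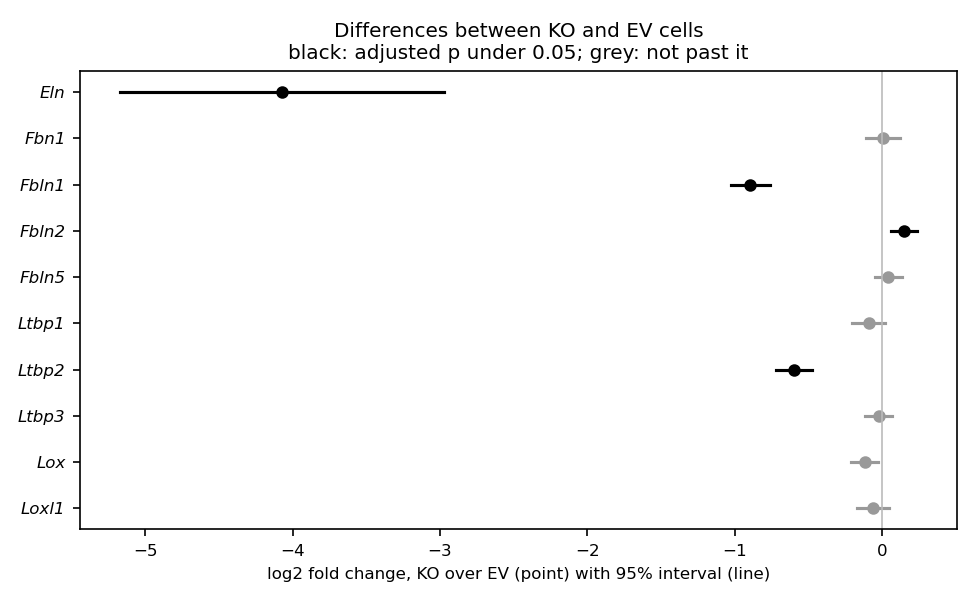
Log2 fold change of KO over EV for each of the 10 genes (point) with its 95% interval from the edgeR fit (line), black where the adjusted p was under 0.05 and grey otherwise. Eln at -4.07, Fbln1 at -0.89 and Ltbp2 at -0.60 lie left of 0 and Fbln2 at 0.15 to its right, and all other points are within 0.12 of 0.

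Eln (ENSMUSG00000029675, mm10 chromosome 5, 134703781 to 134747241, minus strand) encodes tropoelastin, the soluble unit of the fibre core. It had 1, 1, 1 and 1 counts in KO replicates 1 to 4, against 13, 18, 16 and 26 counts in EV replicates 1 to 4. The groups did not overlap, and every KO library was below the floor of 3 counts. Summed, 4 counts in KO stood against 73 counts in EV, which after scaling is 18.8-fold lower in KO with an exact 95% interval from 7.05 to 71.0-fold that covers counting error only. The fitted log2 fold change was -4.07 (SE 0.53, edgeR adjusted p = 9.91e-06). It was -4.13 without KO replicate 1 (adjusted p = 6.27e-05). At these counts Eln was barely detected even in EV, where its 0.868 ± 0.245 CPM (SD, n = 4) exceeded that of only 709 genes tested, and in KO it could not be told from absent at this depth.

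Fbn1 (ENSMUSG00000027204, chromosome 2, 125300594 to 125507993, minus strand) encodes the fibrillin of adult microfibrils. Its level was 213, 224, 213 and 244 CPM in KO replicates 1 to 4 and 216, 206, 232 and 236 CPM in EV replicates 1 to 4. The libraries of both groups were interleaved, and the log2 fold change was 0.0069 with a 95% interval from -0.11 to 0.12 (edgeR adjusted p = 0.939). As a percent change that interval runs from -7.08 to 8.66%. The sign of this small value turned with the scaling, to -0.044 with library totals alone.

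Among the fibulins Fbln1 parted from Fbln2 and Fbln5, whose ratio to each other did not differ detectably between groups (exact permutation p = 0.114). Fbln1 (ENSMUSG00000006369, chromosome 15, 85205949 to 85286535, plus strand), a fibulin of basement membranes and elastic fibres that also binds fibronectin, fell in KO. It stood at 31.7, 28.1, 32.6 and 32.5 CPM in KO replicates 1 to 4, against 57.8, 55.4, 57.0 and 62.1 CPM in EV replicates 1 to 4. All KO libraries were below all EV libraries. The means were 31.2 ± 2.11 CPM in KO and 58.1 ± 2.85 CPM in EV (SD, n = 4 each), 1.86-fold lower, and the fitted log2 difference was -0.89 (SE 0.062, edgeR adjusted p = 3.11e-09). It was -0.90 without KO replicate 1 and -0.85 without KO replicates 2 and 3, the libraries with the most counts of liver genes.

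Fbln2 (ENSMUSG00000064080, chromosome 6, 91212455 to 91272540, plus strand) was 2350, 2419, 2315 and 2365 CPM in KO replicates 1 to 4 and 2280, 2044, 2141 and 2056 CPM in EV replicates 1 to 4. In CPM the KO libraries were all above the EV libraries, and EV replicate 1 stood closest to them. In the deposited FPKM the groups overlapped, with 481 FPKM in EV replicate 1 and 474 FPKM in KO replicate 3. The log2 fold change was 0.15 (SE 0.043, edgeR adjusted p = 0.0150), a rise of 10.9% with a 95% interval from 4.17 to 18%. With library totals alone it was 0.099 (adjusted p = 0.0800), and it did not pass in FPKM. It was 0.15 without KO replicates 2 and 3 (adjusted p = 0.0782). Without KO replicate 1 it was 0.15 (adjusted p = 0.0418).

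Fbln5 (ENSMUSG00000021186, chromosome 12, 101746565 to 101819055, minus strand) binds elastin and, through an RGD motif, integrins, and is needed in mice for elastic fibre assembly. It had 305, 287, 320 and 308 CPM in KO replicates 1 to 4 and 290, 293, 307 and 295 CPM in EV replicates 1 to 4. The groups overlapped, with a log2 fold change of 0.042 and a 95% interval from -0.050 to 0.13 (edgeR adjusted p = 0.522). With library totals alone the value was -0.0087.

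The latent TGF-beta binding proteins also parted. Ltbp2 (ENSMUSG00000002020, chromosome 12, 84783212 to 84876532, minus strand), which binds fibrillin-1 and, unlike the others, does not bind latent TGF-beta, fell. It stood at 41.6, 37.0, 38.5 and 40.3 CPM in KO replicates 1 to 4, against 62.6, 59.5, 55.5 and 60.3 CPM in EV replicates 1 to 4. No KO library reached the lowest EV library. The means were 39.4 ± 2.0 CPM in KO and 59.5 ± 2.97 CPM in EV (SD, n = 4 each), 1.51-fold lower, and the fitted log2 difference was -0.60 (SE 0.058, edgeR adjusted p = 2.57e-07). It was -0.62 without KO replicate 1 and -0.54 without KO replicates 2 and 3. Ltbp2 lies 16.9 Mb from Fbln5 on chromosome 12. D030025P21Rik, annotated on the opposite strand within Ltbp2, held 0.418% as many counts.

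Ltbp1 (ENSMUSG00000001870, chromosome 17, 75005568 to 75392512, plus strand), which tethers latent TGF-beta to the matrix, had 66.8, 63.8, 66.0 and 70.9 CPM in KO replicates 1 to 4 and 70.2, 67.3, 70.8 and 76.5 CPM in EV replicates 1 to 4. The groups overlapped. Its log2 fold change was -0.090 with a 95% interval from -0.20 to 0.023 (edgeR adjusted p = 0.242). Ltbp3 (ENSMUSG00000024940, chromosome 19, 5740904 to 5758532, plus strand), which also carries latent TGF-beta, had 468, 462, 478 and 472 CPM in KO replicates 1 to 4 and 506, 477, 478 and 450 CPM in EV replicates 1 to 4. The KO range lay inside the EV range, and the log2 fold change was -0.023 with a 95% interval from -0.12 to 0.069 (edgeR adjusted p = 0.739).

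To set the genes that fell beside the one that rose, the RefSeq promoter windows (GRCm38.p6, 250 bases before to 50 after an annotated start, gene strand) are shown for Fbln1 and Ltbp2, which fell, and for Fbln2, which rose slightly. The Fbln2 call was lost in 5 of 20 alternatives. Of the 10 genes 7 had an entry. Eln, Lox and Loxl1 did not. The windows are chr15:85205699-85205998 (plus), chr12:84876442-84876741 (minus) and chr6:91212514-91212813 (plus), and capitals mark matches on either strand to the motifs named after them.
Fbln1: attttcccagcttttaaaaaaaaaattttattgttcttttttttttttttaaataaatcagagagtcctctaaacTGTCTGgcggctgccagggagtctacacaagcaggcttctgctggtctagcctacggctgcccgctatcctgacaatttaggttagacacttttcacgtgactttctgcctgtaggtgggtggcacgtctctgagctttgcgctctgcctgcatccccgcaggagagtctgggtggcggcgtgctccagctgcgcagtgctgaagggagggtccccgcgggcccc
Ltbp2: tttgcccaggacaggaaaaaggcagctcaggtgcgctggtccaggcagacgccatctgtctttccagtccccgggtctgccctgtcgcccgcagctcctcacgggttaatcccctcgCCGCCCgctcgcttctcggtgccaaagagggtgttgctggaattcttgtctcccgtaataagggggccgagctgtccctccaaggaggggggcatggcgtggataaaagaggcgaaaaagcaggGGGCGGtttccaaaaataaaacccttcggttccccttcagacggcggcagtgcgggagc
Fbln2: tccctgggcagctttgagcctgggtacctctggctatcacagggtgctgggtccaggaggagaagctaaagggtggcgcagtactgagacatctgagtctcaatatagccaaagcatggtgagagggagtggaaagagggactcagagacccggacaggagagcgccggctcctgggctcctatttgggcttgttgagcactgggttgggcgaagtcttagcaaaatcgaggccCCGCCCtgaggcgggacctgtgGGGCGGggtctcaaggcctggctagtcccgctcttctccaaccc
On both strands the search took GGGCGG for the GC box and CAGACA for the Smad element. It took TGANTCA for AP-1 and TGACGTCA for the cyclic AMP response element. It also took GGAATG for the TEAD element, and TATAAA as the last motif, the letters at the core of a classical promoter. Counting the start as 0, the Fbln1 window held 1 Smad match at -175, the Ltbp2 window GC boxes at -133 and -9, and the Fbln2 window GC boxes at -16 and 6, with no overlaps among them. A second Fbln1 entry, with a start further downstream, held GC boxes at -11 and 11 and the Smad letters at -234. Of 32851 windows of this length 35.7% held a GC box and 21.0% the Smad letters, so these matches are common and no difference between the genes was tested on them. The share of guanine and cytosine was 51.7% for the Fbln1 window shown, 64% for the second Fbln1 entry, 61.0% for Ltbp2 and 60.3% for Fbln2.

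The 2 lysyl oxidases were abundant in both groups. Lox (ENSMUSG00000024529, chromosome 18, 52516069 to 52529867, minus strand) had 1340, 1293, 1323 and 1404 CPM in KO replicates 1 to 4 and 1460, 1377, 1457 and 1519 CPM in EV replicates 1 to 4. KO replicate 4 was above EV replicate 2, so the groups overlapped in CPM, though 3 KO libraries lay below all EV libraries. In the deposited FPKM they did not overlap, with at most 308 FPKM in KO and at least 316 FPKM in EV. The log2 fold change was -0.12 (SE 0.044, edgeR adjusted p = 0.0559), with a 95% interval from -0.21 to -0.025. Lox missed the threshold here and passed it in 10 of 20 alternatives, among them DESeq2 (adjusted p = 0.0259), library totals alone (-0.17, adjusted p = 0.00552), limma-voom, the unfiltered fit, all 3 FPKM fits, and the fits without KO replicate 4 or EV replicate 2. It was -0.12 without KO replicate 1 (adjusted p = 0.127) and -0.082 without KO replicates 2 and 3 (adjusted p = 0.346). Loxl1 (ENSMUSG00000032334, chromosome 9, 58287723 to 58313212, minus strand), needed in mice to renew elastic fibres, had 582, 586, 603 and 578 CPM in KO replicates 1 to 4 and 674, 603, 623 and 552 CPM in EV replicates 1 to 4. The KO range lay within the EV range, and the log2 fold change was -0.062 with a 95% interval from -0.17 to 0.047 (edgeR adjusted p = 0.416).

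**Figure D3:**
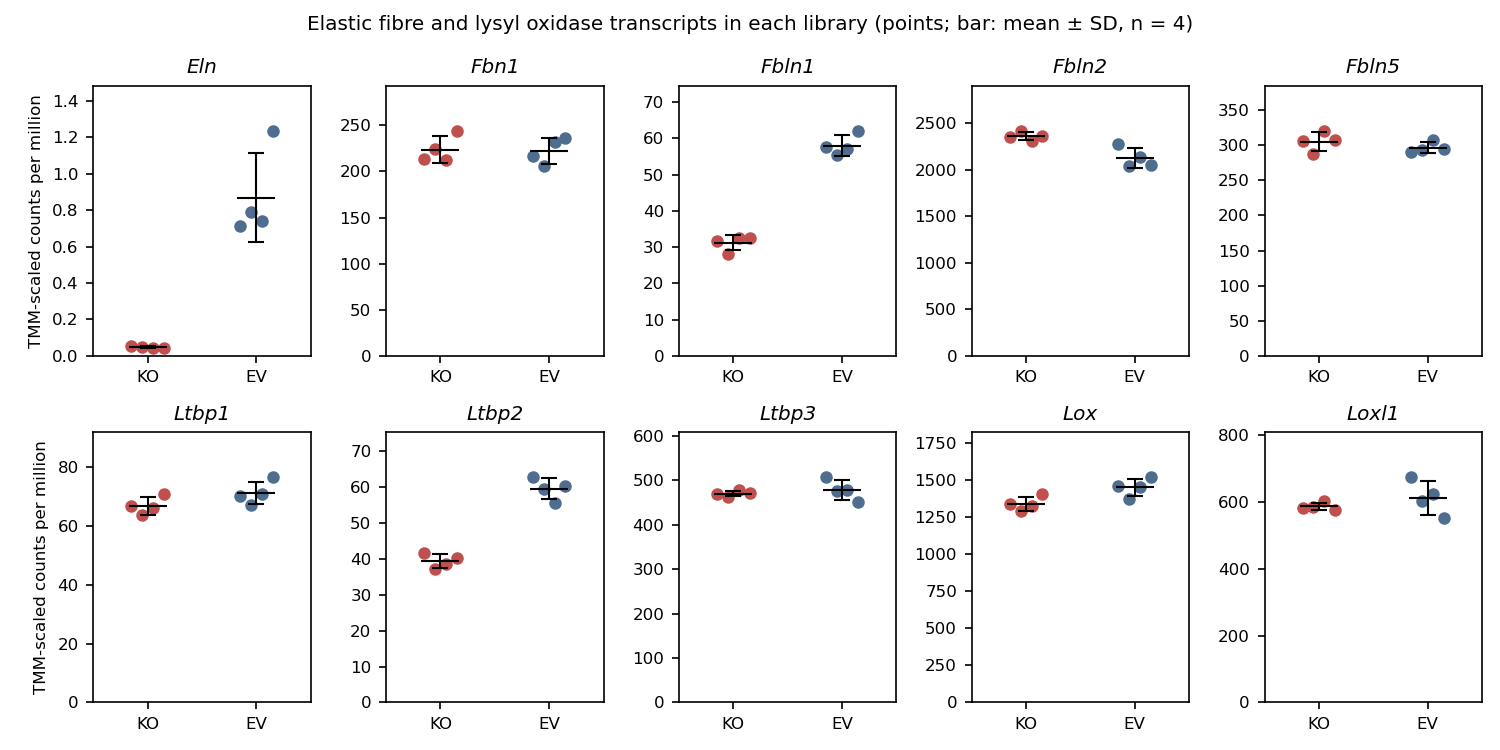
TMM-scaled CPM of each gene in the 4 KO (left) and 4 EV (right) libraries, axes from 0, with bars for mean and SD. Eln, Fbln1 and Ltbp2 show KO points below all EV points, Fbln2 shows KO points just above, and the other 6 genes show groups that overlap.

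Ratios of family members within a library do not depend on the scaling, and 8 of them were compared. The difference of mean log2 ratios was tested by an exact permutation test over 70 arrangements, two-sided, whose smallest p was 0.0286 (0.0457 after Benjamini-Hochberg adjustment over the 8 ratios). Of the 8 ratios, 5 reached it, and all 5 contained Fbln1, Ltbp2 or Eln. Because the falls of these 3 genes were known when the ratios were chosen, these p-values are not independent evidence of those falls. Without KO replicate 1 the log2 differences were -1.06 for Fbln1/Fbln2, -0.94 for Fbln1/Fbln5 and -3.73 for Eln/Fbn1. They were 0.53 for Ltbp1/Ltbp2 and -0.60 for Ltbp2/Ltbp3. Fbln2/Fbln5 gave 0.11, Ltbp1/Ltbp3 -0.070 and Lox/Loxl1 -0.062. Groups that do not overlap cannot come to overlap when a library is left out, so overlap is no check on the 5 ratios.

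Counts of Fbln1 per count of Fbln2 were 0.0135, 0.0116, 0.0141 and 0.0137 in KO replicates 1 to 4, against 0.0253, 0.0271, 0.0266 and 0.0302 in EV replicates 1 to 4. The groups did not overlap, and the mean log2 ratio differed by -1.05 (exact permutation p = 0.0286). For Fbln1 against Fbln5 the difference was -0.94 (exact permutation p = 0.0286), whereas for Fbln2 against Fbln5 the groups overlapped with a difference of 0.11 (exact permutation p = 0.114). That last ratio was 2.94, 3.07, 2.85 and 2.94 on the log2 scale in KO replicates 1 to 4 and 2.98, 2.80, 2.80 and 2.80 in EV replicates 1 to 4, so EV replicate 1 was the EV library that lay among the KO libraries.

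Counts of Ltbp1 per count of Ltbp2 were 1.61, 1.72, 1.71 and 1.76 in KO replicates 1 to 4, against 1.12, 1.13, 1.28 and 1.27 in EV replicates 1 to 4. The difference of mean log2 ratios was 0.51, and for Ltbp2 against Ltbp3 it was -0.57 (exact permutation p = 0.0286 each), while Ltbp1 against Ltbp3 gave -0.068 (exact permutation p = 0.486). Counts of Lox per count of Loxl1 were 2.30, 2.21, 2.19 and 2.43 in KO replicates 1 to 4 and 2.17, 2.28, 2.34 and 2.75 in EV replicates 1 to 4. The groups overlapped, with a log2 difference of -0.058 (exact permutation p = 0.629), which was 0.013 without EV replicate 4. Eln against Fbn1 differed by -3.65 on the log2 scale with 0.5 added to each count (exact permutation p = 0.0286). It was -3.27 with 1 added and -4.19 as a ratio of FPKM. Eln had 1 count in every KO library, below the floor of 3 counts, so this size depends on the constant added. The Eln counts by themselves separate the groups, so the p adds nothing to them.

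**Figure D4:**
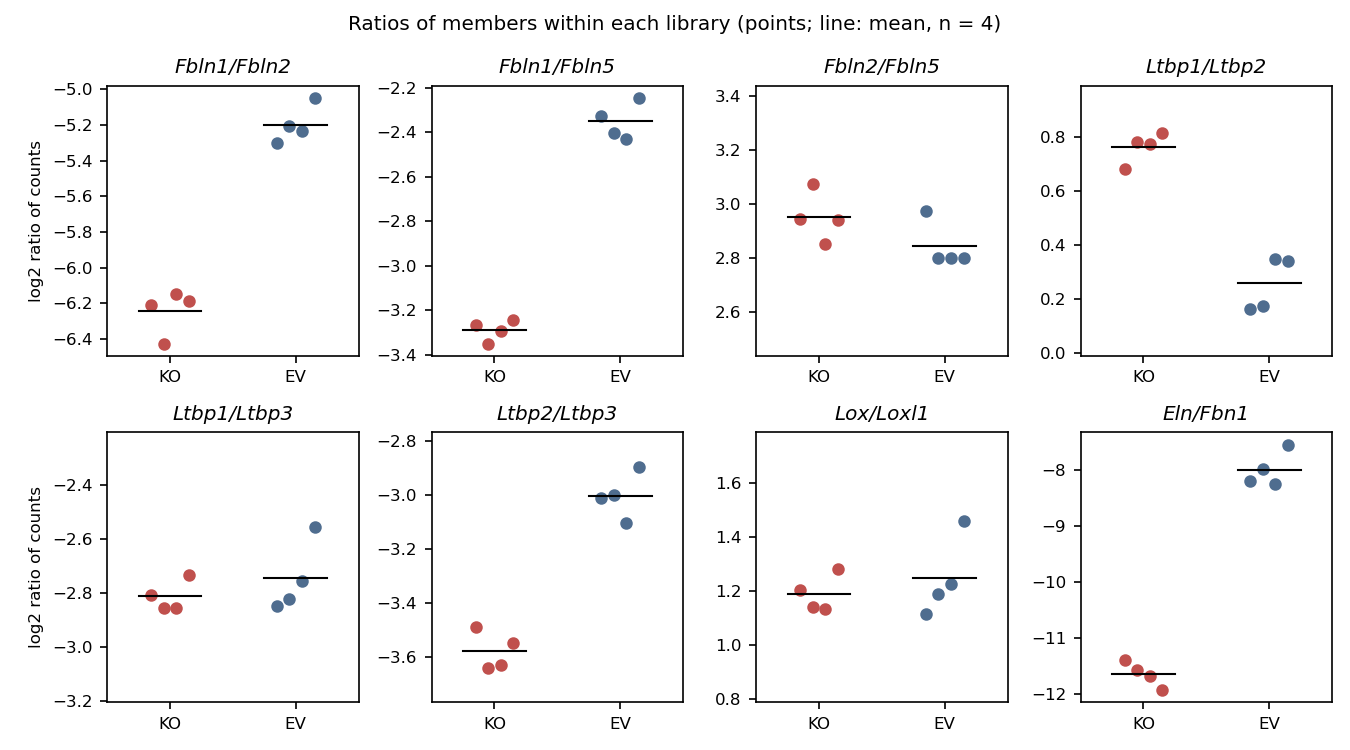
Log2 ratio of the counts of 2 genes within each library for the 8 ratios, KO left and EV right, with lines for group means; each axis spans at least 1 log2 unit and does not start at 0. The groups do not overlap in the 5 panels that contain Fbln1, Ltbp2 or Eln and overlap in the panels of Fbln2/Fbln5, Ltbp1/Ltbp3 and Lox/Loxl1.

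Other genes of the elastic fibre were read from 7 lists with 71 genes, of which 53 passed the filter on low counts. Over all lists 10 were higher and 12 lower in KO, 18.9 and 22.6% of those tested, against 12.6 and 13.4% of all genes tested, and their median log2 fold change was 0.013. Without KO replicate 1, 8 were higher and 12 lower, the calls of Mmp14 and Dcn being lost. Over all genes 1239 were higher and 1382 lower in that fit. No set test was made.

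In the list of other microfibril and elastic fibre genes 11 of 14 were tested, with 0 higher, 2 lower and a median of -0.081. The 2 that fell were small microfibril-associated proteins. Mfap4, which binds elastin and fibrillin, had 15, 10, 22 and 22 counts in KO replicates 1 to 4, against 58, 77, 55 and 63 counts in EV replicates 1 to 4, and a log2 difference of -1.92 (SE 0.23, edgeR adjusted p = 4.28e-06). It overlaps Mapk7 on the opposite strand, which holds 1496% as many counts and did not pass (0.092, adjusted p = 0.357), and without a strand setting their reads cannot be told apart. Mfap2, a component of fibrillin microfibrils, had 31, 28, 49 and 56 counts in KO, against 63, 106, 101 and 79 counts in EV, and a log2 difference of -1.13 (SE 0.19, edgeR adjusted p = 0.000191). Paralogs in this list were also read, chosen by family after values were seen. Fbn2 (-0.17, adjusted p = 0.222), the fibulin Efemp1 (0.32, adjusted p = 0.232), Fbln7 (0.33, adjusted p = 0.304) and Hmcn1 (-0.15, adjusted p = 0.233) did not pass in edgeR, and Hmcn2 was below the filter. The fibulin Efemp2 had 225 CPM in KO and 223 CPM in EV (0.013, edgeR adjusted p = 0.883), a small value whose sign turned with library totals alone. Ltbp4 had 187 CPM in KO and 198 CPM in EV (-0.081, edgeR adjusted p = 0.197), and it passed with library totals alone and in all 3 FPKM fits.

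Of the other lysyl oxidases and the genes that handle these enzymes 10 of 12 were tested, with 2 higher, 2 lower and a median of 0.0062. Periostin, Postn, a matricellular protein that promotes lysyl oxidase activation, fell to 8.07 ± 0.880 CPM in KO, against 24.7 ± 2.53 CPM in EV (SD, n = 4 each, log2 fold change -1.61, edgeR adjusted p = 5.86e-10). Pcolce, which enhances procollagen processing by Bmp1, fell by 0.26 on the log2 scale (SE 0.054, edgeR adjusted p = 0.00136). Fibronectin, Fn1, on which lysyl oxidase is held and activated, rose by 0.59 on the log2 scale (SE 0.046, edgeR adjusted p = 1.68e-08), and the copper chaperone Atox1 rose by 0.35 (SE 0.087, edgeR adjusted p = 0.00605), a call lost in unfiltered FPKM (adjusted p = 0.113). Loxl2, chosen by family after values were seen, had 368 CPM in KO and 387 CPM in EV and did not pass (-0.075, edgeR adjusted p = 0.231), though it did with library totals alone. Loxl3, chosen likewise, had 46.1 CPM in KO and 46.0 CPM in EV (0.0068, edgeR adjusted p = 0.945), with a sign that turned with library totals alone, and Loxl4 was below the filter.

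Of 9 genes of latent TGF-beta 7 were tested, with 0 higher, 1 lower and a median of -0.016. Tgfb3, a TGF-beta ligand, had 228, 236, 230 and 229 CPM in KO replicates 1 to 4, against 285, 275, 287 and 285 CPM in EV replicates 1 to 4, with no overlap and a log2 difference of -0.29 (SE 0.040, edgeR adjusted p = 2.0e-05). Ttll5 overlaps it on the opposite strand with 5.43% as many counts.

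Of 10 fibrillin-associated ADAMTS and ADAMTS-like genes 7 were tested, with 2 higher, 3 lower and a median of -0.016. Thsd4, also called ADAMTS-like 6, which promotes fibrillin-1 assembly, fell to 49.2 ± 3.90 CPM in KO, against 77.0 ± 3.27 CPM in EV (SD, n = 4 each, log2 fold change -0.65, edgeR adjusted p = 1.22e-07). Adamtsl1 fell by 0.65 (SE 0.12) and Adamts10, a fibrillin-binding protease, fell by 0.35 (SE 0.082) on the log2 scale. Adamtsl4, which binds fibrillin-1, rose to 14.5 ± 1.11 CPM in KO, against 8.09 ± 0.384 CPM in EV (SD, n = 4 each, log2 fold change 0.84, edgeR adjusted p = 1.85e-06). Adamtsl3 rose by 0.89 (edgeR adjusted p = 0.0177), a call lost without KO replicate 4 or EV replicate 2. The call was also lost without KO replicates 2 and 3 and in unfiltered FPKM.

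Of 9 proteases that can cleave elastin or activate such proteases 4 were tested, with 3 higher, 1 lower and a median of 0.23. Over all genes tested 12.6% were higher and 13.4% lower, and with 4 genes no direction is read for the list. The macrophage elastase Mmp12 had 11, 22, 28 and 16 counts in KO replicates 1 to 4, against 1, 10, 3 and 2 counts in EV replicates 1 to 4 (log2 fold change 2.19, SE 0.48, edgeR adjusted p = 0.00231). It met the filter on low counts only through KO and reached at most 1.21 CPM in any library, and without KO replicates 2 and 3 it did not pass. Its log2 fold change was 3.10 without EV replicate 2 and 1.93 to 2.33 without any other single library. The leukocyte marker Cd68 was also higher, at 7.89 CPM in KO and 4.74 CPM in EV, with Ptprc at 2 counts over all libraries. The lysosomal cathepsin Ctsl rose by 0.33 (SE 0.046) and the membrane protease Mmp14 by 0.12 (SE 0.042), while the gelatinase Mmp2 fell by 0.21 (SE 0.044) on the log2 scale. The Mmp14 call was lost in 12 of 20 alternatives. These were library totals alone, the unfiltered fit, all 3 FPKM fits, the fit without KO replicates 2 and 3, and 6 fits that leave out 1 library. Of the 8 such fits, only those without KO replicate 2 and EV replicate 1 kept it. Of 10 genes of the elastin receptor and of integrins that bind fibulin-5 or fibrillin 8 were tested, with 1 higher, the integrin subunit Itgb3 at 0.24 (SE 0.072, edgeR adjusted p = 0.0205), and 0 lower. That call was lost with library totals alone, in all 3 FPKM fits and without KO replicates 2 and 3. It was also lost without KO replicate 3 or 4 or EV replicate 1, 2 or 3. Of 7 proteoglycans 6 were tested, with 2 higher, 3 lower and a median of -0.045. Fmod, which modulates collagen crosslinking, fell by 0.38 (SE 0.051), the tropoelastin-binding Bgn fell by 0.24 (SE 0.052) and Lum fell by 0.28 (SE 0.068), while Hspg2, the perlecan of basement membranes, rose by 0.20 (SE 0.049) on the log2 scale. The Lum call was lost without KO replicates 2 and 3 (adjusted p = 0.0930) and the Hspg2 call in unfiltered FPKM (adjusted p = 0.0683). The other that rose, the small proteoglycan Dcn at 0.15 (edgeR adjusted p = 0.0295), did not pass without KO replicate 1, 3 or 4 or EV replicate 1, 2 or 3. Nor did it pass with library totals alone or in any of the 3 FPKM fits.

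**Figure D5:**
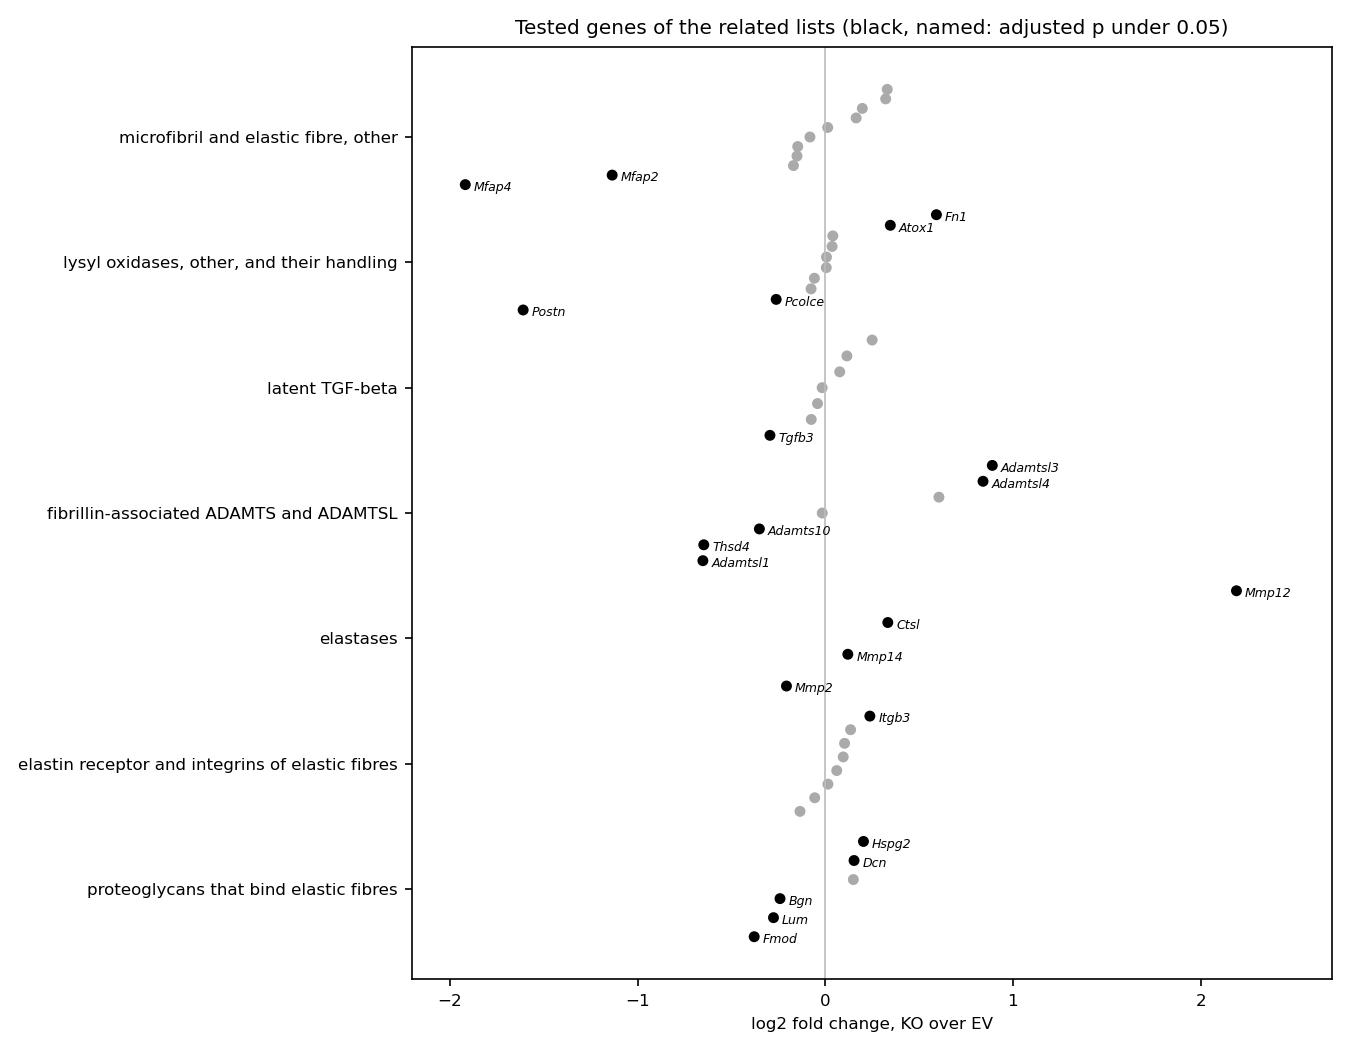
Log2 fold change of KO over EV for the 53 tested genes of the 7 related lists, one line of points per list, black and named where the edgeR adjusted p was under 0.05 and grey otherwise. Mfap4 at -1.92, Postn at -1.61 and Mfap2 at -1.13 lie far to the left and Mmp12 at 2.19 to the right, and most grey points are near 0.

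The genes whose levels ran most like those of Eln, Fbn1 and Lox over the 8 libraries were found by Pearson's r of log2 CPM, as a description only, since libraries of a group share their condition. For Eln they were Mastl (r = 0.997), Fry (r = 0.996) and Frmd4b (r = 0.995), with log2 fold changes of -0.63, -1.47 and -0.57. For Fbn1 they were Fastkd1 (r = 0.958), Prpf8 (r = 0.938) and Eprs (r = 0.933), and for Lox Cdh11 (r = 0.985), Alg9 (r = 0.970) and Sec23a (r = 0.968), none of which passed the test between groups. None of these 9 genes was another of the 10 or in the 7 lists. Eln had 1 count in every KO library, below the floor, so its r values carry little beyond the difference between groups.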

How the data were processed

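Messenger RNA of 8 libraries was read from deposited tables of counts and FPKM per gene, on the mouse build mm10 with DESeq 1.6.3, per the submitters' processing notes. The deposited counts are whole numbers per gene, and the deposited FPKM equal those counts per gene length and column total within a relative difference of 1e-06. Aligner, counter, annotation release and strandedness were each not given in the sources used here. Groups follow the titles. The members, lists and ratios were chosen with earlier results of these data known.

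Counts were tested with edgeR 4.0.16 (quasi-likelihood F test, TMM scaling, filterByExpr with a minimum count of 10 and total of 15, two-sided, Benjamini-Hochberg over 12801 genes, threshold 0.05) in R 4.3.3. CPM are TMM-scaled, and standard errors are the log2 fold change over the square root of F. Alternatives were DESeq2 1.42.0, limma 3.58.1, other scalings, filters and units, a replicate block and left-out libraries. Intervals for counts cover counting error only. All 10 genes are named, and from each list up to 4 called genes with the smallest adjusted p, plus Adamtsl3 and Dcn, which were added with their values seen. The fitting script was tested on simulated data. Promoters came from RefSeq, GRCm38.p6.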

Additional observations from a re-analysis of the deposited data

Results flagged for a closer look

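In a group of 4 libraries a value was singled out where its gap to the nearest other passed Dixon's critical value at the 95% level for 4 samples. Of 36 groups examined 2 did so, and chance gives about 1 in 20. Eln stood at 1.23 CPM in EV replicate 4, against 0.712 to 0.787 CPM in the other EV libraries. The log2 ratio of Fbln2 to Fbln5 was 2.98 in EV replicate 1, against 2.80 in each of the other EV libraries.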

How the results depend on the processing

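Across all genes 3324 passed, 1974 without KO replicates 2 and 3 (880 higher, 1094 lower) and 2621 to 3359 when 1 library was left out. Genes higher in KO numbered 1039 with library totals alone and 896, 897 and 766 in the FPKM fits with 1 added, with 0.1 added and unfiltered. The count of the 10 genes higher in KO was 0 in those 4 fits and without KO replicates 2 and 3. List genes higher in KO numbered 5, 5 and 4 in the FPKM fits and 6 to 11 with 1 library left out.

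Fbn1 turned to -0.044 with library totals alone and to -0.042, -0.044 and -0.042 in the FPKM fits, and ranged from -0.037 to 0.037 with 1 library left out. Fbln5 turned to -0.0087 with library totals and to -0.0092, -0.0094 and -0.0092 in the FPKM fits. Efemp2 turned to -0.037 with library totals and -0.039 in each FPKM fit, and ranged from -0.011 to 0.061 with 1 library left out. Loxl3 turned to -0.044 with library totals, -0.00019 unfiltered, -0.040, -0.043 and -0.040 in the FPKM fits and -0.0070 without KO replicates 2 and 3, and ranged from -0.038 to 0.032. The Fbln2 to Fbln5 ratio ranged from 0.068 to 0.15 and no longer overlapped without EV replicate 1 (0.15), and Lox to Loxl1 ranged from -0.10 to 0.013. Eln was -0.40 in log2(FPKM + 1), where the added 1 exceeds its level, and was not tested under the CPM and FPKM filters. Of 22 called list genes 14 kept their call in every alternative that gave a value, and none turned direction. The causes were not tested.

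With the replicate number as a block 3737 genes and 5 of the 10 passed, Lox being added (adjusted p = 0.0277). Same-numbered libraries correlated at 0.121, -0.033, 0.060 and 0.086, and differently numbered ones at -0.111 to 0.057. Whether the numbers pair the libraries is not settled by these values, and the main fit took the libraries as unpaired. Blocked ratios reach at best an exact sign-flip p of 0.125. Depth limits Eln, below 3 counts in every KO library.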
